A study of Rattus norvegicus with 2 samples.

Results

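Integrins and the basement membrane genes they pair with were described in fetal rat colon, cell type by cell type. The members were chosen by symbol: every annotated integrin alpha or beta subunit, every laminin chain, the type IV collagen chains Col4a1 to Col4a6, the nidogens Nid1 and Nid2, perlecan (Hspg2) and agrin (Agrn). This gave 43 of 28116 gene symbols, made up of 17 alpha integrins, 7 beta integrins, 10 laminin chains, 6 type IV collagen chains, 2 nidogens and agrin, and 42 of them are described. Hspg2, Lama3, Itgb5 and Itgad had no row and were not analysed here. Itgbl1, Itgb1bp1, Itgb1bp2 and Itgb3bp carry similar symbols but encode no integrin subunit, and were left out.

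The study took colon from wild-type (WT) rat fetuses at embryonic stage E19.5 and compared a control pregnancy with a pregnancy under maternal obesity. Each group was represented by 1 droplet single-cell library, control replicate 1 and maternal obesity replicate 2. The labels used here give neither the strain, number and sex of the fetuses in a library, nor the stretch of colon, nor how obesity was brought about. Because each group was 1 library, every difference given here is between 2 libraries and has no replicate check. All intervals are exact 95% intervals that cover counting error only.

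Integrins are cell surface receptors made of 1 alpha and 1 beta subunit, and the pairing sets what they bind. Alpha-6, alpha-3 and alpha-7 subunits bind laminins, alpha-1, alpha-2, alpha-10 and alpha-11 bind collagens, alpha-5, alpha-8 and alpha-v recognise RGD peptides in proteins such as fibronectin and nephronectin, and a leukocyte set mediates homing and cell contact. Their basement membrane ligands form a sheet under epithelia and around muscle, vessels and glia: laminins are trimers of an alpha, a beta and a gamma chain, type IV collagen forms a second network, and nidogens and heparan sulphate proteoglycans such as agrin link these networks. In the gut, part of this sheet is made by the epithelium and part by the mesenchyme beneath it.

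The 6 type IV collagen genes lie as 3 head-to-head pairs, and the levels of the chains are given by these pairs below. RefSeq promoter windows (GRCr8, 250 bases before to 50 after each gene's start) were found for 34 of the 42 members described, including all 6 of these. Col4a1 on the plus strand at chr16:84885347-84885646 and Col4a2 on the minus strand at chr16:84885471-84885770 have start sites 76 bases apart, and their windows share 176 bases. The shared bases are in capitals in these windows, which are shown because this pair had the closest start sites and the highest correlation of levels across cell classes.

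Col4a1: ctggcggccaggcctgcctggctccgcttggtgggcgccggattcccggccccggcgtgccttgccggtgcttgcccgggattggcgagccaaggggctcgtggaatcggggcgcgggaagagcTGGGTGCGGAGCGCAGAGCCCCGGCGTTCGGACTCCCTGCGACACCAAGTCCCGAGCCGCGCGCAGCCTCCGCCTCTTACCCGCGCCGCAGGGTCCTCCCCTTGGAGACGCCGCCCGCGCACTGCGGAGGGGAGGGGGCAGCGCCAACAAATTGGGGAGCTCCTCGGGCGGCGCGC
Col4a2: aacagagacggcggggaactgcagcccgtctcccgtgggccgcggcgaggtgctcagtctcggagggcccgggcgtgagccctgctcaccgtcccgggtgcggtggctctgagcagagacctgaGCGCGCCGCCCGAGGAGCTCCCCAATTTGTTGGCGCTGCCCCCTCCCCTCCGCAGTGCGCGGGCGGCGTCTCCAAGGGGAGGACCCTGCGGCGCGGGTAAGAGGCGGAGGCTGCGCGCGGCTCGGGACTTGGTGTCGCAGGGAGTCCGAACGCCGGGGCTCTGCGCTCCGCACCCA

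Col4a3 (chr9:91323740-91324039, plus strand) and Col4a4 (chr9:91323528-91323827, minus strand) start 412 bases apart, and their windows share 88 bases. Col4a5 (chrX:109907109-109907408, plus strand) and Col4a6 (chrX:109905895-109906194, minus strand) start 1414 bases apart and their windows do not overlap, so no base is in capitals in their sequences, printed here for comparison.

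Col4a5: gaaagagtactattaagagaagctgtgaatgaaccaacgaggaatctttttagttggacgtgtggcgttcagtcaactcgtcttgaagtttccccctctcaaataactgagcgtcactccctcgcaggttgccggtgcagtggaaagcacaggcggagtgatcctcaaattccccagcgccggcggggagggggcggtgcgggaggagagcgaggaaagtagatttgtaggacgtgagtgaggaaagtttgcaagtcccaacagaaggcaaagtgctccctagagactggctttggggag
Col4a6: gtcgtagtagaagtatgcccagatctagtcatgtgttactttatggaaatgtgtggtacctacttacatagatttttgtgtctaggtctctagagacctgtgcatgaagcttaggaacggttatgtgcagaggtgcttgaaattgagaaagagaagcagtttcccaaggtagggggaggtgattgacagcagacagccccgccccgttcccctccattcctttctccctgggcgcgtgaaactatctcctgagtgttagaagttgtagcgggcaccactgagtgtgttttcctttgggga

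Searched on both strands, CCAAT occurred 2 times in the Col4a1 window, 1 time in the Col4a2 window and in none of the other 4, against 37.5% of all 33469 windows and 9 of the 34 member windows. GGGCGG occurred 2 times in each of the Col4a1 and Col4a2 windows, 1 time each for Col4a3, Col4a5 and Col4a6, and not for Col4a4. The GGGCGG matches of Col4a1 and Col4a2, and the CCAAT match of Col4a2, lie in the shared bases. Both windows therefore count the same sites there. That motif was in 21 of 34 member windows (61.8%) and 33.1% of all windows. TATAAA was in none of the 6, in 2 of the 34 member windows (5.88%) and in 14.2% of all windows. These matches describe letters in a window and are not binding sites.

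The deposited matrices held 8903 control and 9714 maternal obesity barcodes with 103013814 and 120811946 UMIs, unique molecular identifiers that each tag the 3′ end of 1 captured transcript. After filtering, 6879 and 7126 cells remained, with medians of 9912 and 9984.5 UMIs, and 79 barcodes occurred among the cells of both libraries. Haemoglobin made up 3.45% and 10.0% of the UMIs of these cells. Clusters were named only from fixed marker lists that hold no member, and members were kept out of the clustering. Clusters with 1426 control and 1996 maternal obesity cells stayed unnamed, and 141 and 52 cells lay in clusters with markers of more than 1 type. The 11 classes with at least 50 cells in each library used for levels were epithelial-like, smooth muscle-like, fibroblast-like, subepithelial fibroblast-like (SEF-like), ICC-like (interstitial cells of Cajal, the gut pacemaker cells), enteric glia-like, enteric neuron-like, blood endothelium-like, mesothelium-like, macrophage-like and dendritic or B-like. Epcam, an epithelial adhesion molecule, read 2722 and 2628 CPM in epithelial-like cells, whereas Col1a1, a fibroblast collagen, read 8.76 and 14.7 CPM there and 3442 and 4786 CPM in fibroblast-like cells. Levels are CPM, the UMIs of a gene per 1000000 UMIs of all cells of a class in 1 library. They are not scaled by gene length, so they are compared for 1 gene across classes and libraries. Pairs of values are control first, then maternal obesity.

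Markers of other cell types were found in the 11 classes, and their sums are given beside the results. 2 classes held many cells with a smooth muscle transcript. Among blood endothelium-like cells, 51 of 81 (63.0%) and 56 of 91 (61.5%) had over 1000 CPM of Actg2, a smooth muscle actin, and so did 36 of 130 (27.7%) and 10 of 92 (10.9%) mesothelium-like cells. Values for these classes include such cells unless stated. This limit depends on depth. Blood endothelium-like cells had medians of 1921 and 1401 UMIs, so that very few Actg2 UMIs pass it in such a cell. Mesothelium-like cells had medians of 9470.5 and 2051.5 UMIs.

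Of these 42 members, 30 reached 20 CPM in at least 1 of the 11 classes in both libraries, and Col4a6 and Itga11 did so in maternal obesity alone. For 30 of the 42, the class with the highest level was the same in both libraries. The heat map of levels shows blocks: Itgb6 highest in epithelium, collagen IV and nidogens across stroma and endothelium, and a leukocyte integrin set.

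**Figure D1:**
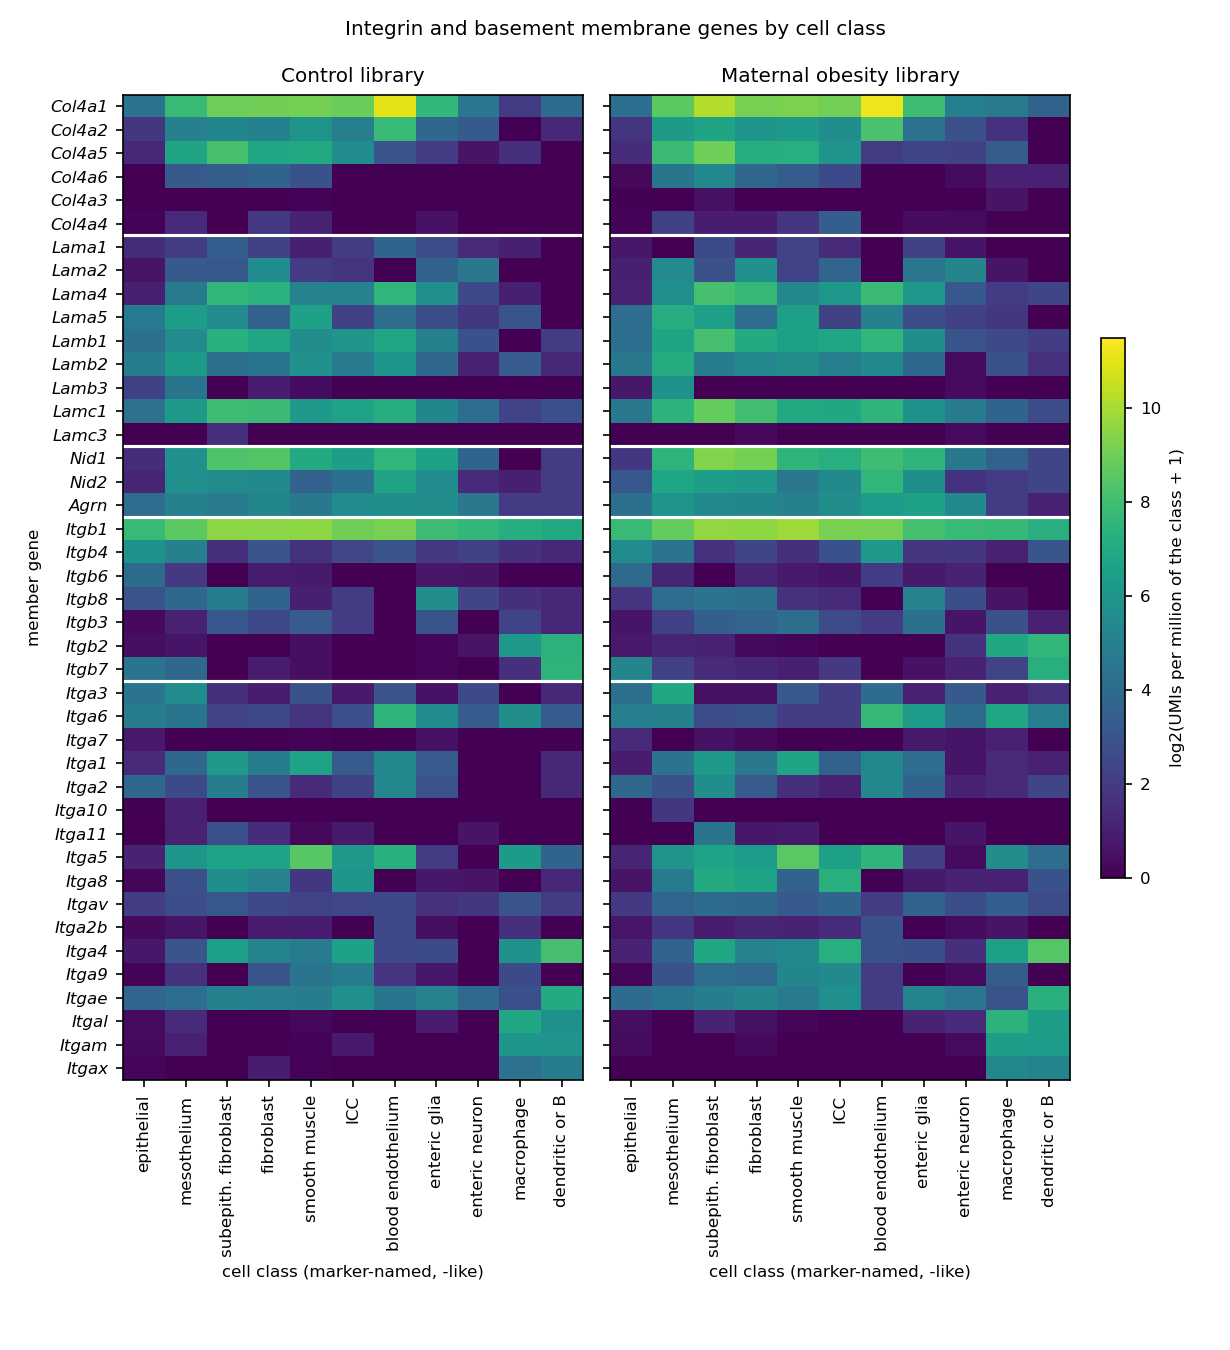
Heat map of log2(CPM + 1) for 42 members (rows, by family) in 11 cell classes (columns), with the control library on the left and the maternal obesity library on the right. Itgb1 is high in every column, Col4a1 peaks in blood endothelium-like cells and Itgb2 in the 2 leukocyte classes.

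Col4a1 and Col4a2 were highest in blood endothelium-like cells in both libraries. Col4a1, a chain of the ubiquitous collagen IV trimer, read 2094 and 2374 CPM in blood endothelium-like cells (2643 and 3095 CPM without the cells over 1000 CPM of Actg2). Its levels were 493 and 1165 CPM in SEF-like, 544 and 608 CPM in smooth muscle-like, 521 and 566 CPM in fibroblast-like, and 487 and 536 CPM in ICC-like cells. They were 222 and 388 CPM in mesothelium-like cells and 198 and 240 CPM in enteric glia-like cells. Enteric neuron-like cells, at 21.8 and 29.8 CPM, and epithelial-like cells, at 17.2 CPM in maternal obesity and 18.8 to 21.2 CPM (95% interval) in control, were low.

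Its partner chain Col4a2 ran in a similar order. It read 217 and 294 CPM in blood endothelium-like, 61.0 and 73.5 CPM in smooth muscle-like, 37.9 and 103 CPM in SEF-like, and 2.50 and 2.45 CPM in epithelial-like cells. Across the 11 classes, which share library, depth and free RNA, the log2 levels of Col4a1 and Col4a2 had a Pearson correlation of 0.97 in control and 0.98 in maternal obesity, given as a description. The number of Col4a1 UMIs per Col4a2 UMI, a ratio of 3′ tags and not of proteins, was 8.91 and 8.27 in smooth muscle-like, 9.66 and 8.07 in blood endothelium-like, and 16.1 and 10.9 in ICC-like cells.

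Col4a5 and Col4a6, which form the trimer of some epithelial and smooth muscle basement membranes, were low in vessels. Col4a5 read 280 and 503 CPM in SEF-like, 125 and 149 CPM in smooth muscle-like, 111 and 141 CPM in fibroblast-like, and 105 and 226 CPM in mesothelium-like cells. In ICC-like cells it read 47.6 and 63.4 CPM, in blood endothelium-like cells 7.15 and 3.10 CPM, and in epithelial-like cells 1.51 and 1.78 CPM. Col4a6 reached 40.5 CPM (98 UMIs) in maternal obesity SEF-like cells and 9.98 CPM (5 UMIs) in the control ones, and 11.8 and 13.5 CPM in fibroblast-like cells. Its correlation with Col4a5 across classes was 0.87 and 0.93. Col4a3 and Col4a4, the chains known from glomerular and other specialised membranes, were rare, with 54 and 418 UMIs in all kept cells. An unnamed mesenchymal cluster held 34 (63.0%) of the Col4a3 and 177 (42.3%) of the Col4a4 UMIs, and Col4a4 read there 38.5 CPM (16 UMIs) and 75.9 CPM (161 UMIs). The correlation of Col4a3 with Col4a4 across classes was 0.30 and −0.25.

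**Figure D2:**
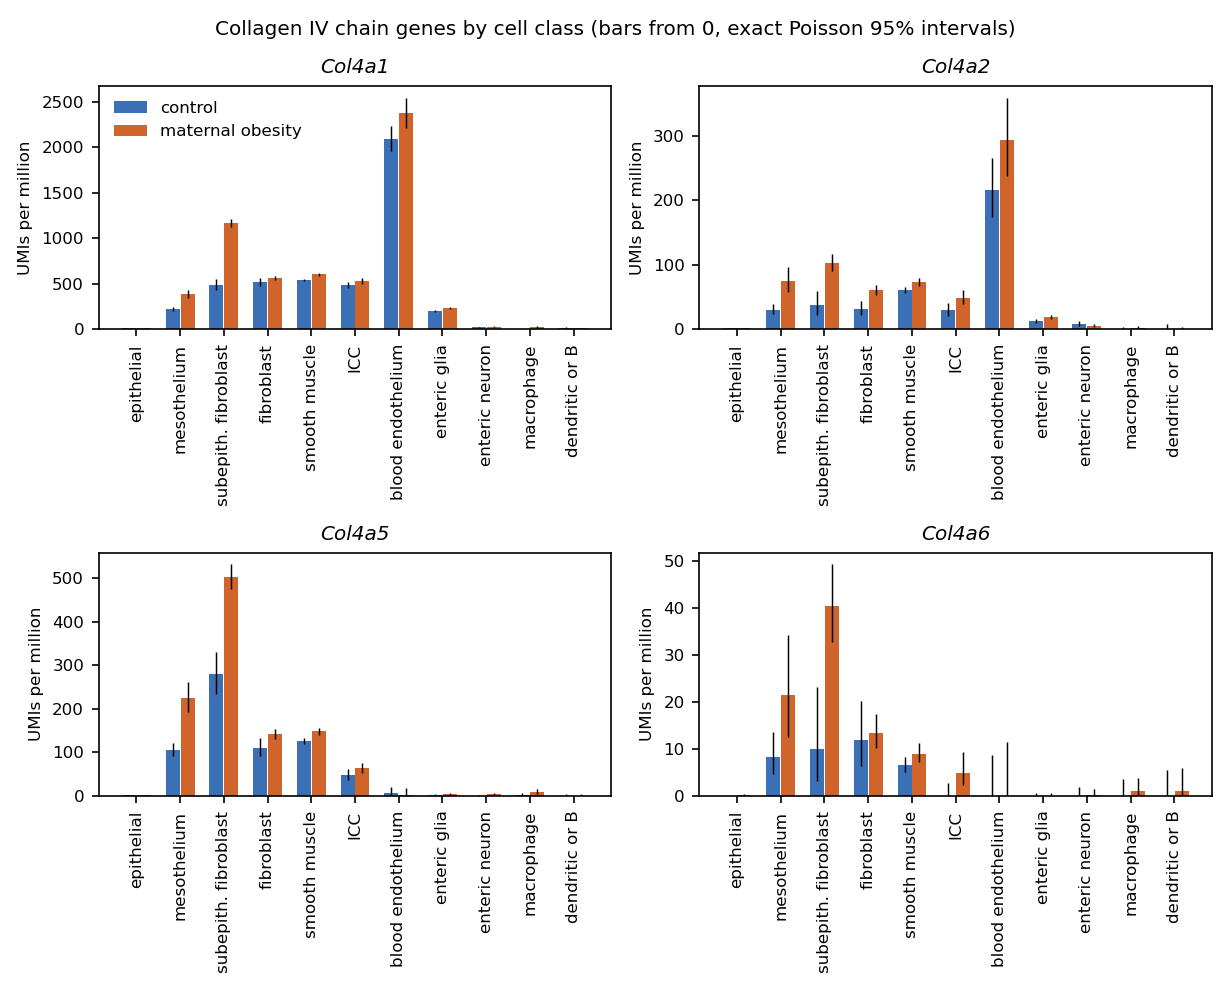
Level (CPM) of Col4a1, Col4a2, Col4a5 and Col4a6 in 11 cell classes, with control and maternal obesity bars and exact 95% Poisson intervals. Col4a1 and Col4a2 peak in blood endothelium-like cells, where Col4a5 is at 7.15 and 3.10 CPM, and Col4a5 and Col4a6 peak in SEF-like cells of the maternal obesity library.

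The laminin alpha chains, which carry the integrin-binding end of the trimer, divided between classes. Lama4, a mesenchymal and vascular chain, read 198 and 272 CPM in SEF-like, 191 and 226 CPM in blood endothelium-like (241 and 300 CPM without the Actg2 cells), 160 and 199 CPM in fibroblast-like, 53.8 and 69.0 CPM in glia-like and 33.2 and 69.4 CPM in ICC-like cells. Lama5, the main chain of mature epithelial basement membranes, read 93.6 and 91.0 CPM in smooth muscle-like, 86.4 and 144 CPM in mesothelium-like, 45.9 and 87.7 CPM in SEF-like, and 24.8 and 16.1 CPM in epithelial-like cells. Lama2, the chain of muscle and nerve laminins, read 47.4 and 55.3 CPM in fibroblast-like, 22.9 and 36.1 CPM in neuron-like and 11.8 and 21.9 CPM in glia-like cells. Lama1, the early embryonic chain, had 344 UMIs in all and read 1.81 and 0.693 CPM in epithelial-like cells.

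The common beta and gamma chains followed each other across classes. Lamb1 read 156 and 276 CPM in SEF-like, 107 and 192 CPM in blood endothelium-like, 111 and 128 CPM in fibroblast-like, 63.5 and 108 CPM in ICC-like, 49.1 and 91.6 CPM in smooth muscle-like and 18.3 and 17.6 CPM in epithelial-like cells. Lamc1 read 240 and 433 CPM in SEF-like, 231 and 262 CPM in fibroblast-like, 141 and 186 CPM in blood endothelium-like, 74.3 and 125 CPM in smooth muscle-like and 18.6 and 23.1 CPM in epithelial-like cells. Their correlation across classes was 0.97 in both libraries. Lamb2 read 76.5 and 140 CPM in mesothelium-like (116 and 154 CPM without the Actg2 cells), 54.6 and 50.4 CPM in smooth muscle-like and 27.1 and 23.1 CPM in epithelial-like cells.

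Lamb3, a beta chain of epithelial laminins, was higher in mesothelium-like (21.5 and 56.7 CPM, or 40.4 and 65.5 CPM without the Actg2 cells) than in epithelial-like cells (3.77 and 0.693 CPM), and Lamc3 had 6 UMIs in all.

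Nid1 was highest in fibroblast-like and SEF-like cells, and Nid2 in blood endothelium-like cells. Nid1 read 325 and 629 CPM in SEF-like, 337 and 539 CPM in fibroblast-like, 191 and 244 CPM in blood endothelium-like, 131 and 180 CPM in smooth muscle-like, 94.2 and 180 CPM in glia-like and 1.76 and 2.48 CPM in epithelial-like cells. Nid2 read 102 and 192 CPM in blood endothelium-like (128 and 255 CPM without the Actg2 cells), 54.5 and 111 CPM in mesothelium-like (101 and 125 CPM without them), 45.9 and 86.8 CPM in SEF-like and 47.5 and 51.5 CPM in glia-like cells. Agrn, a heparan sulphate proteoglycan best known from the nerve-muscle synapse, read 48.5 and 96.2 CPM in glia-like, 52.4 and 80.5 CPM in blood endothelium-like, 47.6 and 50.9 CPM in ICC-like and 16.2 and 17.8 CPM in epithelial-like cells.

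Of the integrins, Itgb1, the common beta subunit, was the one found at over 100 CPM in each of the 11 classes. Its lowest levels were 127 and 149 CPM in dendritic or B-like cells and its highest 757 and 907 CPM in smooth muscle-like cells. Epithelial-like cells read 222 and 220 CPM, a ratio of maternal obesity to control of 0.993 (0.966 to 1.02).

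The laminin-binding subunits differed in the class with their highest level. Itga6 read 179 and 201 CPM in blood endothelium-like, 50.4 and 112 CPM in macrophage-like, 45.4 and 79.8 CPM in glia-like and 27.9 and 29.5 CPM in epithelial-like cells. Itgb4, the beta subunit of hemidesmosomes, which pairs with alpha-6 alone, read 56.8 and 45.3 CPM in epithelial-like and 31.4 and 20.2 CPM in mesothelium-like cells. With every cell thinned to 3000 UMIs, 16.6% and 12.4% of epithelial-like cells had an Itgb4 UMI, leaving out 139 and 23 shallower cells. Of the erythroid-like cells, which should lack it, 0 of 167 (which allows up to 2.19%) and 0.205% had one. The unthinned shares were 54.1% and 59.4% in epithelial-like cells, whose median depths were 17294 and 25269 UMIs, and 2.37% and 1.23% in erythroid-like cells. In blood endothelium-like cells Itgb4 read 7.15 CPM (3 UMIs) and 71.2 CPM (23 UMIs, 95.7% of them in 3 cells). Itga3 read 47.3 and 120 CPM in mesothelium-like (74.5 and 135 CPM without the Actg2 cells) and 20.8 and 17.7 CPM in epithelial-like cells. Itga7, a muscle laminin receptor subunit, had 167 UMIs in all.

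Of the collagen-binding subunits, Itga1 was highest in smooth muscle-like cells and Itga2 in blood endothelium-like cells in control and SEF-like cells in maternal obesity. Itga1 read 98.5 and 104 CPM in smooth muscle-like, 73.9 and 71.1 CPM in SEF-like, and 1.55 and 0.867 CPM in epithelial-like cells. Itga2 read 40.5 and 40.2 CPM in blood endothelium-like, 27.9 and 49.6 CPM in SEF-like and 13.4 and 13.8 CPM in epithelial-like cells. Itga11 read 5.99 CPM (3 UMIs) and 20.7 CPM (50 UMIs) in SEF-like cells, which held 53 of its 121 UMIs, and an unnamed mesenchymal cluster held 32. Itga10 had 12 UMIs in all.

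Among the RGD-binding subunits, Itga5, the fibronectin receptor subunit, read 367 and 381 CPM in smooth muscle-like, 155 and 183 CPM in blood endothelium-like and 102 and 100 CPM in SEF-like cells. Itga8, the nephronectin receptor subunit, read 63.5 and 157 CPM in ICC-like, 49.9 and 130 CPM in SEF-like and 32.8 and 101 CPM in fibroblast-like cells, but 2.66 and 11.6 CPM in smooth muscle-like cells. Itgb6, an epithelial TGF-beta-activating subunit, read 15.9 and 14.9 CPM in epithelial-like cells and at most 3.1 CPM in each other class. Itgb8 read 48.4 and 33.1 CPM in glia-like, 27.9 and 19.9 CPM in SEF-like and 6.65 and 2.30 CPM in epithelial-like cells. Itgb3, a vitronectin receptor subunit, stayed under 20 CPM throughout, with 6.91 and 17.5 CPM in glia-like and 8.93 and 16.5 CPM in smooth muscle-like cells.

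Among the 11 classes, the leukocyte integrins Itgb2, Itgal, Itgam, Itgax, Itga4, Itgae and Itgb7 were highest in macrophage-like or dendritic or B-like cells. Some were also found outside the blood lineages. Lymphoid-like cells (43 and 54) and granulocyte-like cells (45 and 32) missed the minimum of 50 cells in each library. Their levels are not compared here. Itgb2, the common leukocyte beta subunit, read 165 and 196 CPM in dendritic or B-like and 71.2 and 118 CPM in macrophage-like cells. Itgal read 114 and 174 CPM, Itgam 65.2 and 84.6 CPM and Itgax 18.8 and 38.9 CPM in macrophage-like cells. Itga4, a VCAM1 and fibronectin receptor subunit, read 276 and 356 CPM in dendritic or B-like but also 94.4 and 146 CPM in ICC-like and 87.8 and 113 CPM in SEF-like cells. Itgae, the subunit of intraepithelial lymphocytes, read 131 and 158 CPM in dendritic or B-like, 52.9 and 53.0 CPM in ICC-like and 33.0 and 34.9 CPM in glia-like cells. Itgb7, the gut-homing beta subunit, read 178 and 148 CPM in dendritic or B-like and 20.3 and 37.0 CPM in epithelial-like cells. The T cell marker Cd3e had no UMI in epithelial-like cells of either library, and Itgb2 read 0.355 and 0.718 CPM there. The source of the epithelial Itgb7 was not tested. Itga9 read 25.7 and 44.8 CPM in ICC-like and 20.4 and 38.2 CPM in smooth muscle-like cells, and Itga2b, of platelets, had 125 UMIs in all.

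Itgav, at 2 to 15 CPM in all 11 classes, reached 20 CPM in neither library.

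Within the epithelium, Itgb4 and Lamb3 differed more between clusters than between libraries. Itgb4 read 136 and 166 CPM in cluster E9 and 114 and 125 CPM in E10. The leading genes of E9 were the granulocyte and mast cell granule genes Prg2, Mcpt8l3 and Mcpt8l2, then Slc37a2 and the keratin Krt84. E10 was led by S100a9, a neutrophil and squamous gene, the uroplakin Upk1b and the proton pump gene Atp12a. Of the 10 clusters plotted Itgb4 was lowest in E6, at 23.2 and 26.5 CPM, and it read 38.2 and 50.8 CPM in E4, a cluster whose leading genes include the brush border enzymes Enpep and Alpi. Lamb3 was likewise highest, among these 10, in E9 (19.8 and 16.9 CPM) and E10 (17.3 and 16.8 CPM), with at most 3.3 CPM in the other 8.

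The mix of epithelial clusters differed between the libraries, and each level over all epithelial-like cells carries that. E9 and E10 together held 474 of 2538 control (18.7%, 17.2% to 20.3%) and 38 of 1293 maternal obesity epithelial-like cells (2.94%, 2.09% to 4.01%). E4, E5 and E8 held 24.4% and 53.7%. With 1 library per group, a cluster found mostly in 1 library may be that library and not a cell type, and whether the stretch of colon sampled differed was not tested.

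Itgb4 over all epithelial-like cells read 56.8 and 45.3 CPM, a ratio of 0.797 (0.751 to 0.844). Inside the 8 clusters that held 30 or more cells of both libraries, its ratio ran from 0.877 to 1.47 and was above 1 in 7. Weighting those 8 clusters equally gave 45.1 and 53.2 CPM, a ratio of 1.18. E9 and E10, which are not among the 8, held 34.0% of the Itgb4 UMIs of control epithelial-like cells and 6.62% in maternal obesity. Lamb3, at 202 and 28 UMIs, had a ratio of 0.184 (0.119 to 0.274) overall and 0.727 under equal weights. E9 and E10 held 154 of its 202 UMIs in control (76.2%) and 14 of 28 in maternal obesity.

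Nid2 differed in the other direction and inside clusters. It read 1.34 CPM (72 UMIs) and 7.80 CPM (315 UMIs) in epithelial-like cells, a ratio of 5.80 (4.47 to 7.60). The excess lay in E4, with 2.47 and 17.1 CPM, in E5, with 2.90 and 12.6 CPM, and in E8, with 1.38 and 11.2 CPM, clusters whose leading genes include Otc and Alpi (E4 and E5) or the defensins Defal1 and Defa8 (E8). These 3 clusters held 47.2% and 97.1% of the epithelial Nid2 UMIs, and the equal-weight ratio was 3.39. In maternal obesity E5 cells there were 138 Nid2 but 11 Nid1 UMIs. SEF-like cells of that library had 210 Nid2 and 1521 Nid1 UMIs. The 2 counts lay closer in its mesothelium-like class, at 88 Nid2 and 140 Nid1 UMIs. They were also closer in its blood endothelium-like class, at 62 Nid2 and 79 Nid1 UMIs. Whether free RNA from any of these classes added to the epithelial Nid2 was not tested. E4 also had haemoglobin genes among its leading genes, and their part in the result was not tested.

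**Figure D3:**
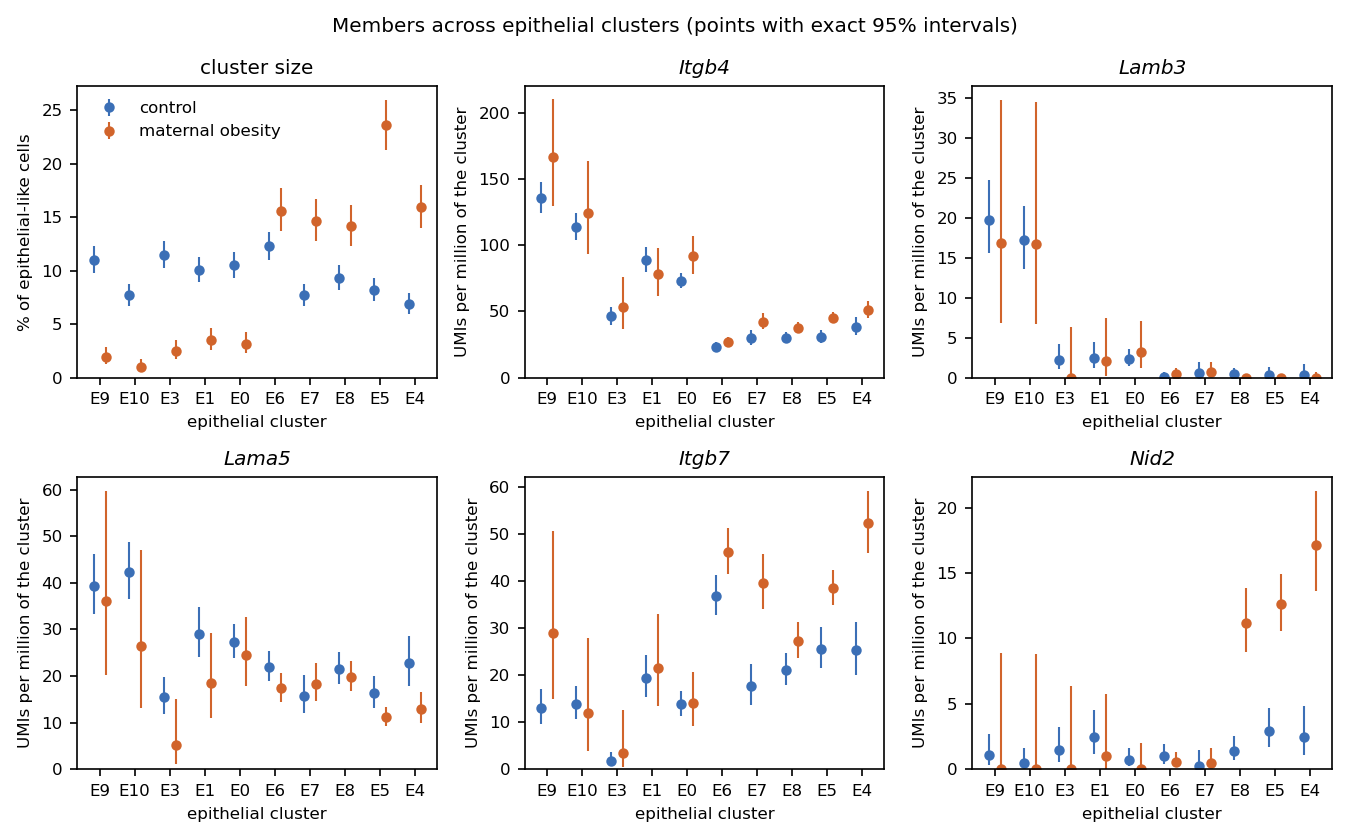
Share of epithelial-like cells in each of 10 epithelial clusters, and the level (CPM) of Itgb4, Lamb3, Lama5, Itgb7 and Nid2 in them, for control and maternal obesity. Itgb4 and Lamb3 are highest in E9 and E10, which hold few maternal obesity cells, and Nid2 separates the libraries in E4, E5 and E8.

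Counting all members, a member was taken as differing in a class when it had at least 20 UMIs over both libraries and was 1.5-fold or more higher or lower. In epithelial-like cells 34 members had 20 UMIs: 9 were higher and 5 lower in maternal obesity. Over all 13651 genes so tested there, 12.0% were higher and 11.9% lower. All 14 also had their whole interval beyond 1, as did 10.5% of all genes in the higher and 10.4% in the lower direction. The median log2 ratio was 0.14 for members and 0.05 for all genes. The higher members were Nid2, Itgb7 (1.82, 1.69 to 1.97) and 7 with at most 1.7 CPM in either library: Itga2b, Itga4, Itga7, Itga8, Itgb2, Itgb3 and Lama2. Without the 3 cells with the most UMIs of each, Itga8 had under 20 UMIs and the intervals of Itgb2, Itgb3 and Lama2 included 1. Itgb7 had a ratio above 1 in each of the 8 clusters but passed 1.5-fold in 3, and its ratio under equal weights was 1.51, with 25.3 and 52.2 CPM in E4 and 17.6 and 39.5 CPM in E7. The lower ones were Lamb3, Lama5 (0.649, 0.590 to 0.713), Lama1 (0.383), Itgb8 (0.346, 0.273 to 0.436) and Itga1. Under equal weights 10 members were higher and 1 lower. Itga5 (1.73), Itgal (1.78) and Nid1 (1.89) joined the higher ones, and Itga7 (1.49) and Lama2 (1.29) dropped out. Of the lower ones, Itga1 went to 1.06, Lamb3 to 0.727, Lama5 to 0.752 and Itgb8 to 0.808, and Lama1 stayed at 0.374. Erythroid markers summed to 81.8 and 610 CPM in epithelial-like cells, and their part in the member differences was not tested.

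SEF-like cells, the fibroblasts that carry crypt signals such as Wnt5a and Bmp5, had the most members higher outside mesothelium-like cells. Of 24 members tested, 16 were higher and none lower in maternal obesity, against 20.9% higher and 12.2% lower over all 8782 genes. The member median was 0.80 on the log2 scale and that of all genes −0.01. With the interval beyond 1 as well, 13 members were left, without Agrn, Itgav and Lamb2, against 8.31% of all genes higher and 6.06% lower. All 4 collagen IV chains tested, 4 of 5 laminins, all 3 nidogens and agrin and 5 of 12 integrins were higher. The class held 86 control cells (median 5734.5 UMIs) and 340 maternal obesity cells (median 6891).

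Col4a1 was 2.36-fold higher (2.08 to 2.70), Col4a2 2.71-fold (1.70 to 4.59), Col4a5 1.80-fold (1.51 to 2.16) and Col4a6 4.06-fold (1.68 to 12.8). Lamb1 was 1.77-fold (1.40 to 2.27), Lamc1 1.81-fold, Lama5 1.91-fold and Nid1 1.93-fold (1.64 to 2.29) higher. Itga8 was 2.60-fold higher (1.73 to 4.08), and Itga9, with no control UMI and 39 in maternal obesity, was at least 2.69-fold higher against a floor of 3 counts. Itgb1 (733 and 802 CPM), Itga1 and Itga5 were among the integrins within 1.5-fold.

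The SEF-like markers themselves were higher in maternal obesity, summing to 593 and 1110 CPM with 9 of 13 higher by 1.5-fold and none lower, and 2 of them were at 0 in control. Fibroblast markers summed to 6841 and 7611 CPM and smooth muscle markers to 1567 and 1287 CPM. Epithelial markers summed to 804 and 452 CPM and erythroid markers, mostly haemoglobins, to 234 and 2133 CPM. The part of these in the member differences was not tested. In fibroblast-like cells Col4a1 read 521 and 566 CPM, and Nid1 337 and 539 CPM.

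**Figure D4:**
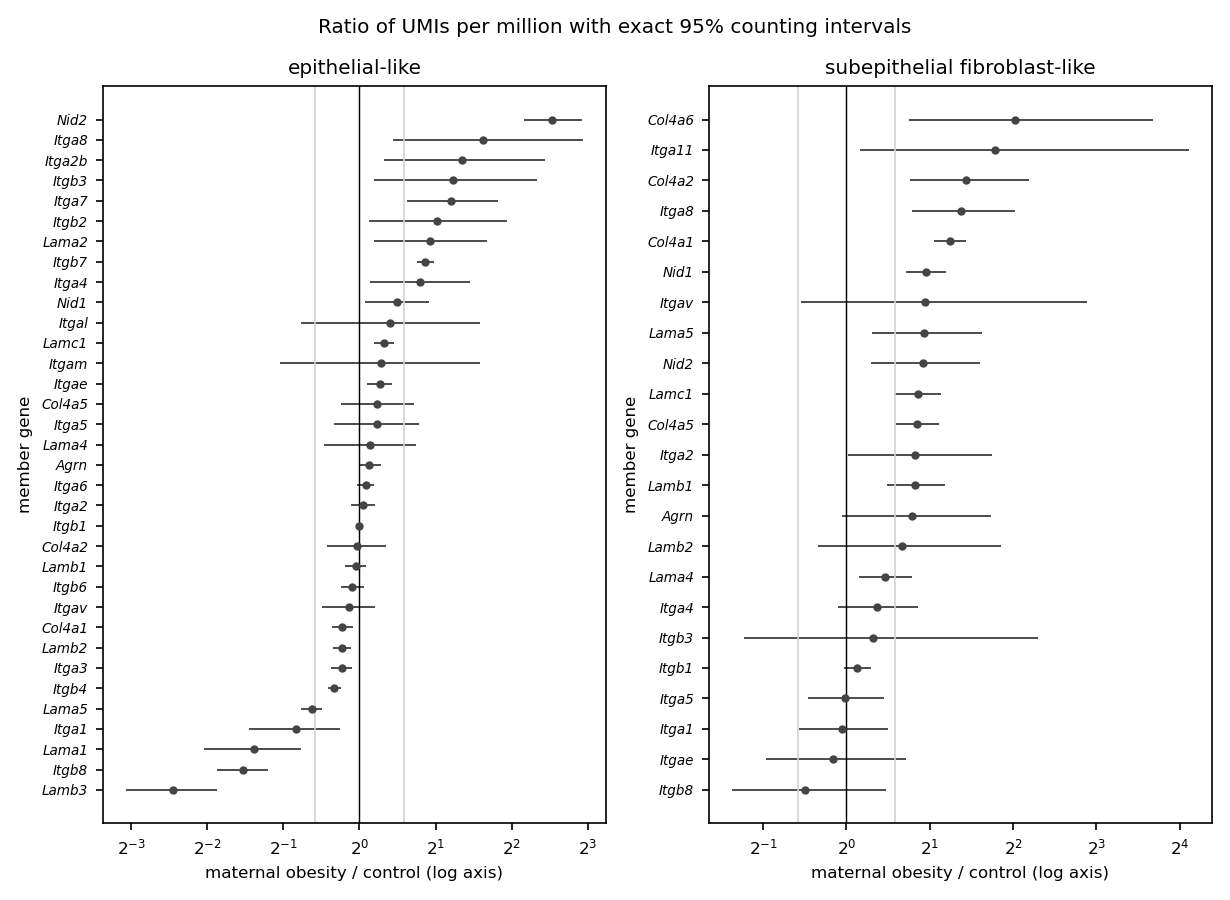
Ratio of maternal obesity to control (log axis) with exact 95% intervals for members in epithelial-like and SEF-like cells, with 1 in black and 1.5-fold in grey. Members with no UMI in 1 library, such as Itga9 in SEF-like cells, are left out; in SEF-like cells the collagen IV and nidogen points lie right of 1, and in epithelial-like cells Nid2 and Lamb3 lie at opposite ends.

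The other stromal and muscle classes had more members higher than lower, mostly against backgrounds shifted the same way. In smooth muscle-like cells 11 of 29 members were higher and none lower, with 18.7% and 5.26% of all genes. Lamb1 (1.87-fold), Lamc1 (1.69-fold), Nid2 (1.99-fold), Itga4 (1.64-fold), Itga9 (1.87-fold) and Itga8 (4.38-fold, 2.86 to 6.90) were among them. In fibroblast-like cells 9 of 26 were higher and 1 (Itgb4, at 7.29 and 4.27 CPM) lower, with 21.5% and 6.40% of all genes. The higher ones included Itga8 (3.08-fold, 2.19 to 4.45), Itgav (3.01-fold), Col4a2 (1.92-fold), Lamb2 (1.86-fold) and Nid1 (1.60-fold, 1.43 to 1.79). In ICC-like cells 10 of 19 were higher and none lower, with 20.8% and 5.51% of all genes, including Itga8 (2.47-fold, 1.93 to 3.19), Nid2 (2.49-fold), Lama4 (2.09-fold), Nid1 (1.80-fold) and Lamb1 (1.70-fold). Itga8 was higher by 1.5-fold in each of the 4 classes of muscle, fibroblast, SEF and ICC-like cells. Beside these, erythroid markers summed to 368 and 1276 CPM in smooth muscle-like, 233 and 3949 CPM in fibroblast-like and 267 and 2222 CPM in ICC-like cells. Epithelial markers there summed to 439 and 253, 718 and 416, and 842 and 419 CPM in the same order, and the part of either was not tested.

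In enteric glia-like cells 9 of 24 members were higher and none lower, with 19.6% and 3.99% of all genes. Agrn (1.98-fold), Nid1 (1.92-fold), Itga6 (1.76-fold) and Itgav (5.21-fold) were higher. Enteric neuron-like cells had 8 of 14 higher and none lower, with 16.9% and 5.11% of all genes, among them Agrn (1.97-fold) and Nid1 (12.2 and 24.5 CPM), but 3 of the 8 had their whole interval beyond 1. Erythroid markers summed to 134 and 1441 CPM in glia-like and 204 and 5140 CPM in neuron-like cells, and epithelial markers to 458 and 269 CPM and to 638 and 323 CPM. The part of these was not tested.

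Blood endothelium-like cells had 4 of 15 members higher and none lower, with 17.1% and 11.7% of all genes. The 4 were Agrn, Lamb1, Nid2 and Itgb4, and without the Actg2 cells they were also the 4 higher of 15, with 18.3% of all genes higher and 13.3% lower. That left 30 and 35 cells, under the minimum of 50. These cells held 42 of 43 and 62 of 62 Nid2 UMIs, and 43 of 45 and 62 of 62 Lamb1 UMIs. The counts are therefore nearly the same ones, and this is no separate check. Over all cells of the class, smooth muscle markers summed to 15750 and 15750 CPM, above the blood endothelium markers at 6297 and 5270 CPM. Epithelial markers summed to 1027 and 984 CPM and erythroid markers to 7146 and 5218 CPM. The part of these in the member counts was not tested. Without the 3 highest cells of each, Agrn went to 1.33-fold and Lamb1 to 1.44-fold, and of the 23 Itgb4 UMIs in maternal obesity 1 lay outside its 3 highest cells. Mesothelium-like cells had 18 of 26 higher and 2 (Itgb4 and Itgb7) lower, with 25.7% and 10.9% of all genes. Without the Actg2 cells 13 of 22 were higher and none lower, with 22.6% and 10.2% of all genes. Lama5 (1.41-fold), Lamb2 (1.33-fold) and Nid2 (1.23-fold) then lay within 1.5-fold, as did Itgb4 (30 and 16 UMIs), while Itga4, Itgav and Itgb7 had under 20 UMIs. Beside the counts over all cells of the class, smooth muscle markers summed to 11950 and 4539 CPM there, epithelial markers to 9936 and 6063 CPM, fibroblast markers to 3700 and 11410 CPM, and the mesothelium markers, all 6 of them higher, to 506 and 1140 CPM. Erythroid markers summed to 114 and 2089 CPM, and the part of these in the member counts was not tested.

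Macrophage-like cells had 10 of 15 members higher and 1 lower, with 23.0% and 6.39% of all genes. Leukocyte subunits Itgb2 (1.65-fold), Itgal (1.53-fold) and Itgax (2.07-fold) were higher, as was Itga6 (2.22-fold), and Itga5 was lower (0.656, and 0.740 without its 3 highest cells). The higher counts of Col4a1 (48 UMIs in maternal obesity, 5 without the top 3 cells), Nid1, Col4a5 and Lamc1 rested on those 3 cells. In macrophage-like cells erythroid markers summed to 14790 and 9792 CPM, beside 17930 and 16820 CPM for the macrophage markers, and epithelial markers to 592 and 353 CPM; their part was not tested. Dendritic or B-like cells had 2 of 11 higher, Itga6 and Itgal, and none lower, with 16.5% and 10.4% of all genes, beside erythroid marker sums of 248 and 1361 CPM.

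The goblet-like, stem/progenitor-like and enteroendocrine-like parts of the epithelium held few maternal obesity cells. Goblet-like cells, 291 and 32, had 1 of 16 members higher (Itga1) and 8 lower, with 13.2% and 15.5% of all genes. Stem/progenitor-like cells, 255 and 45, had 1 of 16 higher (Itgae) and 5 lower (Col4a1, Lama4, Lama5, Lamb1 and Lamb2), with 8.13% and 11.9% of all genes. Of the lower ones, Col4a1 turned to 1.61, 1.27 and 1.28 and Lamb2 to 1.02 and 1.34 under other settings of filtering or clustering. The ratios of Itga1 and Itgae fell below 1 without their 3 highest cells. Enteroendocrine-like cells, 39 and 15, had none of 3 higher and none lower, with 15.3% and 17.3% of all genes.

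**Figure D5:**
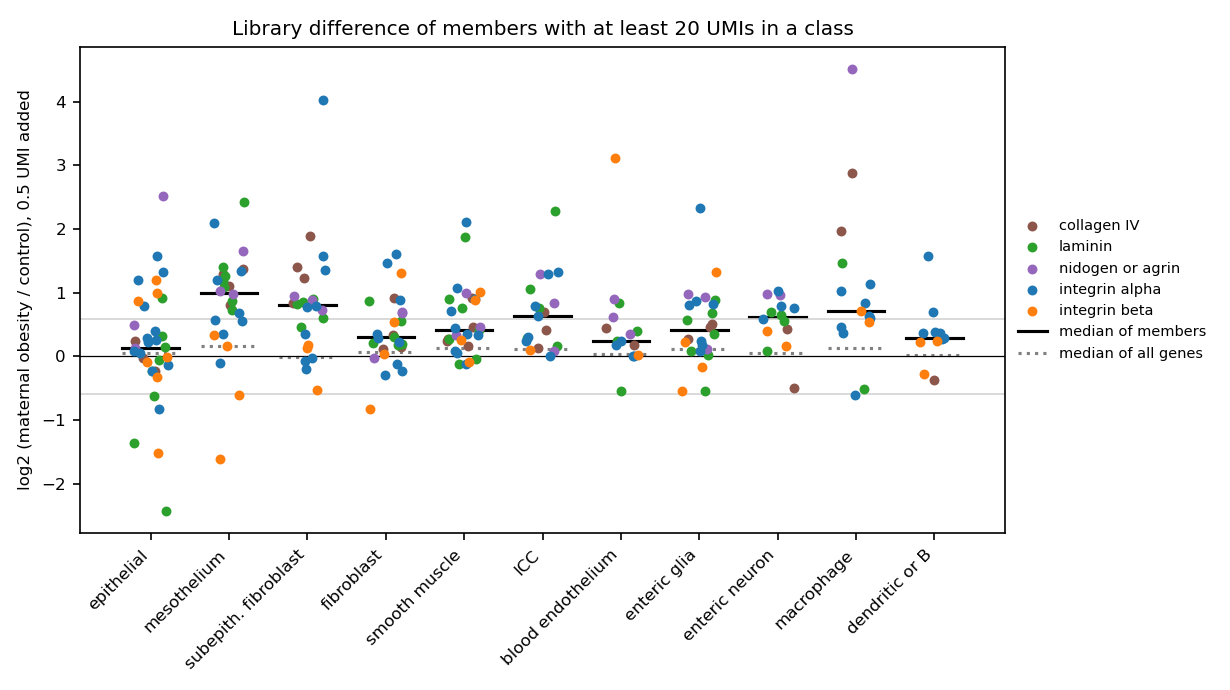
Log2 ratio of maternal obesity to control for each member with at least 20 UMIs (points) in each cell class, with the member median (black) and the median of all genes so tested (dotted grey). The member median lies above the all-gene median in every class plotted, most in mesothelium-like and SEF-like cells and least in epithelial-like cells. The gap is also wide in macrophage-like (0.72 against 0.14) and enteric neuron-like cells (0.62 against 0.05).

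Partner genes outside the members were read from lists of adhesion and matrix genes, to be set against the shares over all genes given above (12.0% higher and 11.9% lower in epithelial-like, 20.9% and 12.2% in SEF-like cells). Of 25 integrin adhesome genes tested in epithelial-like cells, 2 were higher, Parvb (1.74 and 2.65 CPM) and Tns1 (0.953 and 2.55 CPM), and 1 lower, the leukocyte kindlin Fermt3 (12.3 and 7.45 CPM). The 3 highest, the actin linkers Actn4 (400 and 429 CPM), Vcl (161 and 128 CPM) and Actn1 (104 and 106 CPM), were within 1.5-fold. Of 7 hemidesmosome and tetraspanin genes, Dst, a plakin of hemidesmosomes, was higher (27.6 and 46.3 CPM). Cd151, the tetraspanin that binds laminin-binding integrins, was lower (32.2 and 14.6 CPM), as was Cd9 (532 and 344 CPM), and so was Col17a1 at 1.42 and 0.347 CPM. Cd151 was also lower in SEF-like (23.9 and 10.8 CPM) and smooth muscle-like cells (41.1 and 19.2 CPM), and in ICC-like, blood endothelium-like, glia-like and neuron-like cells. Dst was higher in SEF-like (25.9 and 74.8 CPM) and smooth muscle-like cells (33.5 and 61.4 CPM), and in ICC-like, glia-like, fibroblast-like, macrophage-like and mesothelium-like cells. These differences were therefore not particular to epithelium, SEF or muscle. Cd9 was higher in SEF-like cells, where 3 of 6 genes of this list were higher and 2 lower.

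Of 24 other basement membrane genes in epithelial-like cells, 4 were higher: Npnt, Egfl6, Fras1 (6.69 and 11.2 CPM) and the collagen IV crosslinking enzyme Pxdn (3.35 and 6.31 CPM). Smoc2 (14.1 and 6.64 CPM), Vwa1 (7.25 and 2.48 CPM) and Plod1 were lower. In SEF-like cells 4 of 18 such genes were higher and none lower, namely Pxdn (35.9 and 106 CPM), Fras1 (7.99 and 30.2 CPM), Col18a1 (16.0 and 33.9 CPM) and Loxl2, whose interval included 1. Pxdn was higher as well in smooth muscle-like, fibroblast-like, ICC-like, glia-like, neuron-like and mesothelium-like cells. Other integrin ligands there counted 6 of 13 higher, with Spp1 (osteopontin) at 258 and 1249 CPM and Tgfbi at 1226 and 2135 CPM, and 1 lower, Postn (periostin) at 830.4 and 367 CPM. Proteases and inhibitors of the basement membrane counted 5 of 8 higher and none lower in SEF-like cells, including Mmp14 (156 and 256 CPM), Adamts1 (110 and 228 CPM) and Timp2 (132 and 271 CPM). In epithelial-like cells 2 of 8 were higher, Mmp2 and Mmp7, and 3 lower, Adamts1 (50.2 and 15.5 CPM), Timp2 (79.8 and 43.6 CPM) and Hpse. Npnt, the nephronectin ligand of alpha-8 integrin, read 4.56 and 27.9 CPM in smooth muscle-like cells.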

How the data were processed

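The authors deposited raw UMI counts per gene and barcode for each library, 30400 gene identifiers in all, with Cell Ranger 6.1.2 per the file headers and 2.1.1 per the submitters' processing notes; no build is named in the sources used here. The UMI counts carry no normalization. Per the labels' protocols, tissue was digested with collagenase IV and pancreatic enzymes, filtered and treated to lyse red cells.

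A barcode was kept if it had 500 genes or more and no more than 20% of its UMIs from mitochondrial genes. Scrublet marked 2 of 6879 control barcodes (0.0291%, a caller that had not worked) and 110 of 7236 maternal obesity barcodes (1.52%). Those 110 were removed and none in control, so doublets were treated unequally. Counts were scaled to 10000 per cell and logged, and cells were clustered with scanpy 1.11.5 (2000 variable genes without members, 30 components, 15 neighbours, Leiden resolution 1), then again within epithelial, mesenchymal and immune cells. The rule that turns marker lists into names was set and adjusted after the clusters were seen. Its threshold for the mean log2 marker excess was lowered from 1.5 to 1.25, through which the ICC-like class was named. Outside the epithelium a cluster needed an own marker among its 10 leading genes or 4 among its 50. A cluster with few UMIs per cell needed 1 among the 10. The goblet-like cluster was named by its mean marker excess, with 0 own markers among its 10 leading genes. Mixed clusters were set aside. Class names therefore describe rebuilt clusters.

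UMIs were summed per class and library. Levels have exact Poisson intervals, ratios exact conditional binomial intervals and shares exact Clopper-Pearson intervals, all at 95%, for counting error only. Medians of log2 ratios add 0.5 UMI to both libraries. Full values were given for members at or above 20 CPM in a class of both libraries, and library differences were named for members with at least 20 UMIs, at least 1.5-fold, with the whole interval beyond 1. The members and lists were chosen with earlier results of these data known. The ratio calculation was also run on simulated Poisson counts for epithelial-like and SEF-like cells. Those counts held no library effect and no extra spread between cells, so they say nothing about either. Planned features of the proteins were not run. Alternatives to these choices are in the closing section. Of the 43 members found by the rule, 1 is not reported here. Symbols of 34 of the other 42 matched a RefSeq promoter window; Itga6, Itga7, Itgal, Itgb2, Itgb3, Itgb4, Lamb2 and Nid2 did not.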

Additional observations from a re-analysis of the deposited data

How the results depend on the processing

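No paired analysis was possible because each group is 1 library. Over 98 ratios of named members, 1007 alternative values were computed: 957 lay inside the reported interval, 41 outside it on the same side of 1, and 9 changed direction. Ratios against a library at 0 (Itga9 in SEF-like and Nid1 in macrophage-like cells) were not recomputed. Leiden resolution 0.5 left 6 members lower over the classes other than epithelial, against 4 in the same classes. ComBat by library gave 5 higher in epithelial-like cells and 65 higher in 9 other classes, against 66 in the same classes. Under it no ICC-like class was named. Mesothelium-like (69 and 46), blood endothelium-like (39 and 34) and goblet-like cells (0 and 31) then had too few cells in a library. So did mesothelium-like cells with Scrublet calls kept (69 and 41) and at a mitochondrial limit of 10% (65 and 37). The ratios of these classes were not recomputed under those settings. Equal cluster weights gave 1 lower epithelial member and a minimum of 100 UMIs 3 higher. The equal weights also leave out clusters under 30 cells in a library, among them E9 and E10. The higher minimum tests fewer genes, and the part of each of these was not tested. Direction changed for Itga1 (1.06) in epithelial-like cells under equal weights, for Lamb2 in stem/progenitor-like cells with Scrublet calls kept (1.02) or a mitochondrial limit of 10% (1.34), for Col4a1 there under that limit (1.61), ComBat (1.27) and doublet removal at the expected rate (1.28), for Itgb7 in mesothelium-like cells with members among the variable genes (2.49) or resolution 0.5 (2.39), and for Col4a1 in macrophage-like cells under ComBat (0.674); the cause was not tested. Removal of doublets at the expected rate, which took 5.51% and 5.79% of barcodes and treats both libraries alike, was chosen after seeing the data, as were the settings that leave out the 3 top cells, cells over 1000 CPM of Actg2 or shared barcodes, and the marker mean of 1.5. Epithelial Nid2 stayed between 3.39 and 8.47, and SEF-like Col4a1 between 1.99 and 2.45. Depth limits members under 20 UMIs in a class, for which no difference was read.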
